A study of Rattus norvegicus with 32 samples.

Results

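The transcripts of HIPK2 and of 9 target genes of the transcription factor p53 were followed in the rat glioma cell line C6. The 10 genes, Hipk2, Cdkn1a, Mdm2, Ccng1, Gadd45a, Tp53inp1, Sesn1, Bax, Bbc3 and Fas, were chosen by name. Together they had 13 of the 30367 non-control probes on the array and were 10 of its 26583 gene names. Confluent C6 cells in medium with fetal bovine serum were left untreated (Control), received angiotensin II at 0.1 µM (Ang II), or received the same dose 30 min after 10 µM of an antagonist. The antagonist was Losartan, which blocks the AT1 receptor (Ang II+Los), or PD123319, which blocks the AT2 receptor (Ang II+PD123319). RNA was taken at 3 h or 6 h from 4 replicates of each of the 8 groups, giving 32 single-colour arrays. Antagonists without Ang II were not analysed here, so each antagonist was compared with Ang II. C6 is 1 established line, and nothing states that the replicates were separate cultures, so p-values measure the spread between these samples, which may be technical.

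HIPK2 is a nuclear serine/threonine kinase that phosphorylates p53 after DNA damage and favours its pro-apoptotic programme, and it is itself marked for degradation by MDM2. p53 binds response elements near its target genes, and the protein products then arrest the cell cycle, assist DNA repair, buffer oxidative stress, start apoptosis or switch p53 off again. In gliomas this pathway is often disabled. An mRNA level says nothing directly about the kinase activity of HIPK2 or the activity of p53.

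The members were read by oligonucleotides of 60 bases. The probes of Hipk2, Cdkn1a and Mdm2 are shown because the result for HIPK2 rests on 1 probe and the paired probes of the other 2 genes gave unlike readings. The first 30 bases of each are given, except for the Mdm2 probe A_43_P16885, which is printed whole because its 60 bases were mapped to a span of 335 bases and so cross at least 1 gap in the genome. No base is in capitals.
Hipk2 A_64_P065676: cggaaaagagaacattttaaaaggaggggt
Cdkn1a A_44_P914438: ccctgtttctgtaacaccctgagctggact
Cdkn1a A_64_P123895: aatttaaacttctcctgtatatactctgcc
Mdm2 A_43_P16885: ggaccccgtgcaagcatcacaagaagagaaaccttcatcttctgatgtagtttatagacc
Mdm2 A_44_P634946: atggagtaaccaaaggatagttctgtattg
On rn4, the build of the array's files, the Hipk2 probe lies at chr4:66274582-66274641 on the minus strand. The Cdkn1a probes lie at chr20:7386596-7386655 and chr20:7385536-7385595 on the plus strand. The Mdm2 probes lie at chr7:57005501-57005835 and chr7:56996880-56996939 on the minus strand. Exon and UTR annotation of that build was not used here.

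Promoters were looked at because some p53 response elements lie there. Elements farther away or within introns were not looked for. RefSeq's table for the build GRCr8, which gives 250 bases before and 50 after each gene start, held 7 of the 10 members: Hipk2, Cdkn1a, Mdm2, Ccng1, Gadd45a, Sesn1 and Fas. The 10-base p53 response-element motif, whose letters read the same on both strands, occurred in 4 of these 7 windows and in 7.98% of all 33469 promoters. Stretches before the gene start are printed with the motif in capitals, which starts at -201 in Cdkn1a, -48 in Gadd45a, -172 in Sesn1 and -232 in Ccng1, counted from the gene start.
Cdkn1a: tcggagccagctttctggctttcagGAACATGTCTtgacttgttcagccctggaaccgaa
Gadd45a: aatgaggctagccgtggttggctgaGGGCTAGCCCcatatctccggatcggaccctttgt
Sesn1: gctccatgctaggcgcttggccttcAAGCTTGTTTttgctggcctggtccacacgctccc
Ccng1: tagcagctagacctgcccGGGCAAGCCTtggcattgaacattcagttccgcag
A pair of these motifs separated by 0 to 13 bases, the form of a complete element, occurred in 0.0598% of all promoters and in 0 of the 7. Only motifs that fit at every letter were counted, so an element with a mismatched letter was missed. The 0 thus does not show that these windows lack a complete element. A match describes letters in the window, and the arrays did not measure p53 binding.

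The values below are log2 signals normalized among the 16 arrays of a time, and a log2 difference of 1 is a doubling. Between 55.9% and 64.7% of spots per array were well above background at 3 h and between 64.2% and 79.8% at 6 h. The glial markers Vim, Nes, S100b and Cnp were well above background on all 16 arrays of each time, whereas Gfap, the astrocyte filament, was so on 0 arrays at 3 h and 2 at 6 h. Of the microglia and blood markers, Ptprc was so on 0 arrays and Aif1, Itgam and Cd68 on all. Of the neuron markers, Syt1 was so on 0 arrays, Rbfox3 on 0 at 3 h and 3 at 6 h, and Snap25 on all. Of the endothelial markers, Pecam1 was so on 0 arrays, Cdh5 on 12 at 3 h and 16 at 6 h, and Kdr on 6 and 11. The 4 arrays of a replicate number shared a slide, and the treatments held the same slide positions throughout, so position and treatment cannot be told apart. At 3 h, 2 arrays of replicate 2 lay farthest from their slide means, with a root mean square deviation over all genes of 0.641 for Ang II+Los and 0.465 for Control, against 0.128 to 0.421 for the other 14 arrays.

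Of the members, 8 were bright enough to be tested at 3 h and 9 at 6 h, out of 13630 and 16446 genes. Both Fas probes were not well above background on any of the 32 arrays, so Fas, the death receptor, was tested at neither time. Sesn1, a sestrin that dampens oxidative stress and mTORC1 signalling, was well above background on 3 of 16 arrays at 3 h and on 13 of 16 at 6 h, and was tested at 6 h. The other 8 were well above background on all arrays. A gene counts here as past the limits when limma's unadjusted p is under 0.05 and its fold is over 1.2 or under 0.8. The study's methods state t-tests at that p alone, so the fold limit and limma are choices made for the present values. No member passed a Benjamini-Hochberg adjusted p of 0.05 in any comparison, and 0 of all genes did (0% in each of the 6 comparisons, while 328 to 3533 genes had an unadjusted p under 0.05). Of the 7 calls of members below, Hipk2 with Losartan at 3 h alone also passed in a fit without the pairing of arrays by slide. By the methods' paired test per gene 0 passed both limits. At an unadjusted p under 0.05 with no fold limit, limma had 9 of the 51 tests of a member. Of these, 5 were in Ang II x Control at 6 h, where 3533 of all 16446 genes were under that p. With Losartan and with PD123319 at 6 h 328 and 1048 genes were. At 3 h 1734, 1489 and 407 of all 13630 genes were, in Ang II x Control, with Losartan and with PD123319. The methods' paired test had 5 of the 51, of which none was among limma's 9. Those 5 were Ccng1 against Control at 3 h, and Mdm2, Bbc3, Tp53inp1 and Gadd45a with PD123319 at 6 h, the last 4 with log2 differences of 0.07, 0.17, 0.22 and -0.16, and 0 passed after adjustment. By that paired test and p alone, 8.83%, 2.85% and 4.04% of all genes passed at 3 h in Ang II x Control, with Losartan and with PD123319, and 11.6%, 4.57% and 8.71% at 6 h.

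In each of the 51 tests of a member, the 2 groups of 4 arrays overlapped. Groups that did not overlap were also rare over all genes: 1.38%, 0.8% and 0.367% at 3 h and 1.83%, 0.255% and 0.602% at 6 h, in the same order.

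**Figure D1:**
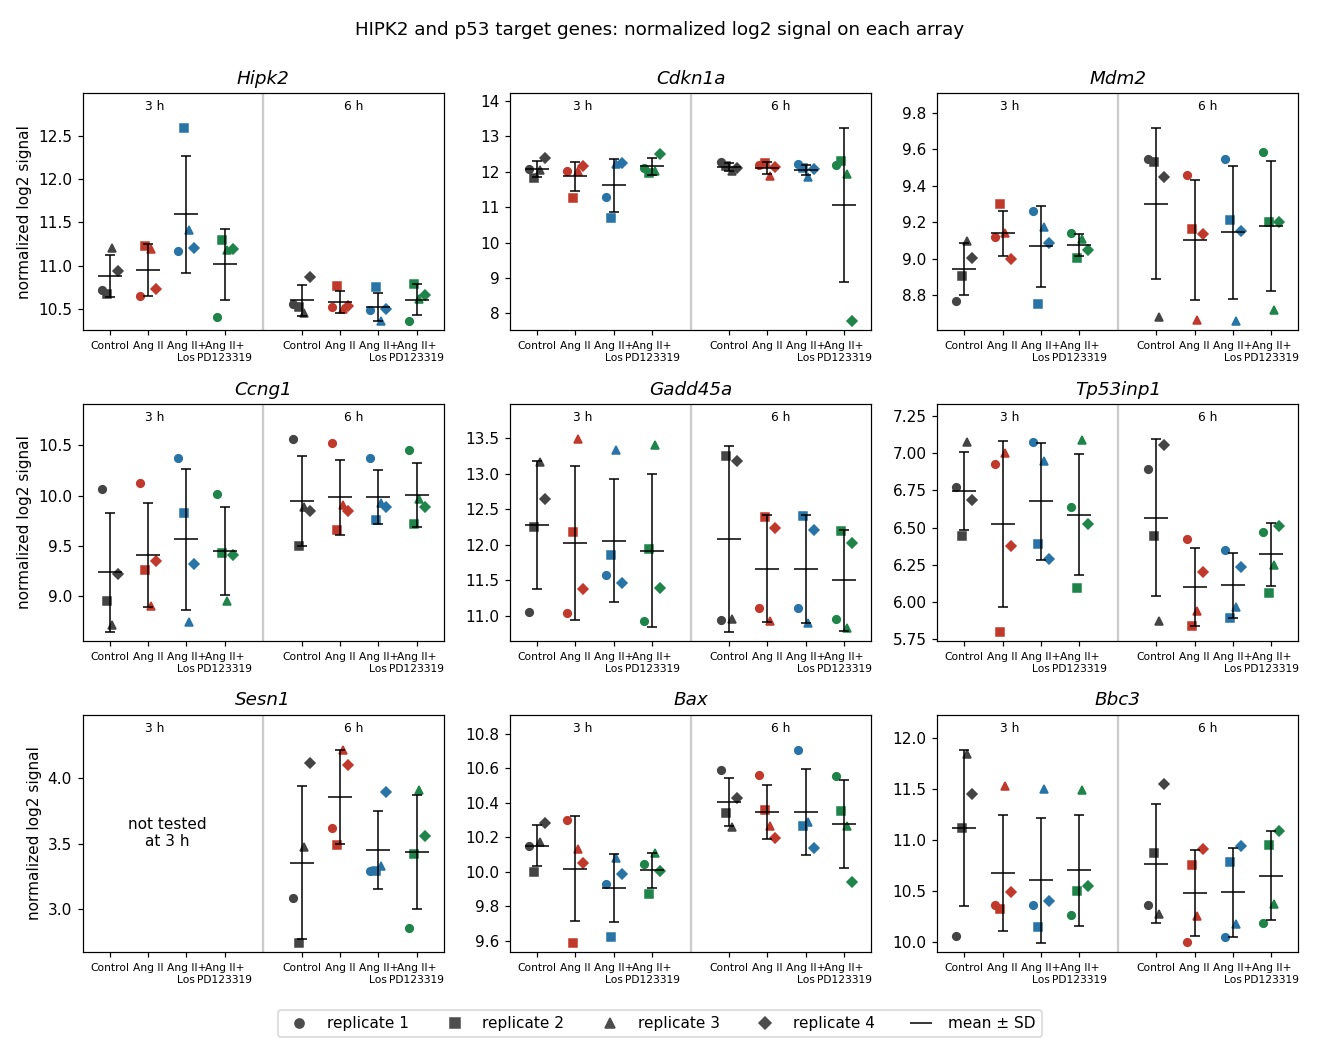
Normalized log2 signal (y axis) of the 9 members tested, on each array of the 4 treatments at 3 h and 6 h (x axis). Each symbol is 1 array and its shape the replicate number, and black bars are the mean ± SD of 4 arrays. Hipk2 is highest at 12.59 on the Ang II+Los array of replicate 2 at 3 h, and Cdkn1a is at 7.79 on 1 array at 6 h.

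In Ang II x Control at 3 h, 1 of the 8 members tested passed the limits, Bbc3, which was lower. Of all genes, 5.99% passed as lower and 5.04% as higher, the members' count being 1 and 0. The median log2 fold change was -0.17 over the 8 members and 0.00 over all genes.

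Bbc3 encodes PUMA, a BH3-only protein that starts mitochondrial apoptosis. Its Control arrays read 10.07, 11.12, 11.85 and 11.46 in replicates 1 to 4, and its Ang II arrays 10.36, 10.33, 11.53 and 10.50. In RNA from whole cultures, fewer cells expressing a gene and less RNA per cell cannot be told apart. Bbc3 was lower with Ang II in replicates 2, 3 and 4, by differences of -0.80, -0.32 and -0.96, and higher in replicate 1 (0.30). The fitted log2 fold change was -0.44 (SE 0.19, 95% interval -0.86 to -0.03, limma adjusted p = 0.38). Fitted values in the text come from limma, and adjusted p-values are over all genes tested. Bbc3 no longer passed without replicate 2 (-0.33), without replicate 3 (-0.49) or without replicate 4 (-0.27). Within the scan of replicates 1 and 2 the value was -0.25, and within that of replicates 3 and 4 it was -0.64 and past the limits. Of all 13630 genes, 659 passed within the first of these scans and 1241 within the second.

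Levels differed between slides for several members at 3 h. Gadd45a read 13.16 to 13.49 on the 4 arrays of replicate 3 and 10.93 to 12.64 on the other 12. Bbc3 read 11.50 to 11.85 on the arrays of replicate 3, against 10.07 to 11.46 elsewhere. Ccng1 read 10.01 to 10.38 on those of replicate 1 and 8.71 to 9.82 on the rest. These shifts between slides are removed by the block.

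The other members with roles in apoptosis and damage repair did not pass at 3 h. Bax, the pore-forming BCL2 relative, had a log2 fold change of -0.13 (SE 0.11). Tp53inp1, a p53 cofactor that also acts in autophagy, had -0.22 (SE 0.14). Gadd45a, a growth-arrest and repair protein, had -0.25 (SE 0.24), of which replicate 4 gave -1.26 and the other 3 replicates between -0.06 and 0.33. Among the cell-cycle and feedback genes, Cdkn1a, the CDK inhibitor p21, had -0.21 (SE 0.20), and Ccng1, cyclin G1, had 0.17 (SE 0.14). Hipk2 had 0.07 (95% interval -0.44 to 0.58).

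Mdm2, the ubiquitin ligase that degrades p53, had a log2 fold change of 0.20 (SE 0.12, adjusted p = 0.49) as the mean of its probes, which differed. A_43_P16885 read 6.97, 7.14, 7.64 and 7.56 in Control and 7.52, 8.04, 7.70 and 7.71 with Ang II, so it was higher in all 4 replicates and most in replicates 1 and 2. Its log2 fold change was 0.41 (SE 0.19, adjusted p = 0.41). A_44_P634946 read 10.56, 10.67, 10.56 and 10.45 in Control and 10.73, 10.56, 10.58 and 10.29 with Ang II, a difference of -0.02 (SE 0.10). The difference between the probes was not tested.

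**Figure D2:**
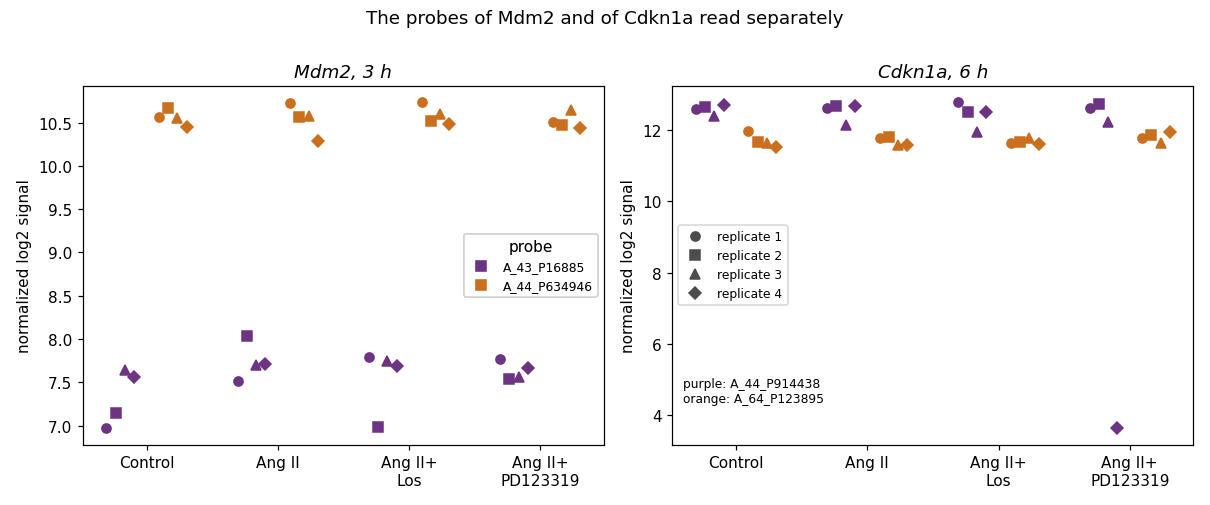
Normalized log2 signal (y axis) of each probe of Mdm2 at 3 h (left) and of Cdkn1a at 6 h (right) in the 4 treatments (x axis), 1 symbol per array with its shape giving the replicate number. Levels of different probes cannot be compared. The lower Mdm2 probe is at 6.97 and 7.14 in replicates 1 and 2 of Control, and 1 Cdkn1a spot is at 3.63.

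When Ang II+Los was set against Ang II at 3 h, 1 of the 8 members passed, Hipk2, which was higher. Of all genes, 4.67% passed as higher and 5.41% as lower. The median log2 fold change of the members was -0.02, beside 0.00 over all genes.

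Hipk2 read 10.65, 11.23, 11.19 and 10.73 in replicates 1 to 4 of Ang II. With Losartan before Ang II it read 11.16, 12.59, 11.42 and 11.20. Each of the 4 replicates was higher with Losartan, by 0.51, 1.36, 0.23 and 0.47, and the array of replicate 2 stood above all the others. Control arrays read 10.72, 10.67, 11.20 and 10.94 on the same slides. The fitted log2 fold change was 0.64 (SE 0.23, 95% interval 0.13 to 1.15, a fold of 1.56, adjusted p = 0.43). Without replicate 2 it was 0.40 and still past the limits, as were 221 of all 13630 genes. Within the scan of replicates 1 and 2 it was 0.94, within that of replicates 3 and 4 it was 0.35, and it passed in both. Of all 13630 genes, 2438 passed within the first of these scans and 581 within the second. With PD123319 the arrays read 10.41, 11.29, 11.18 and 11.19, a log2 fold change against Ang II of 0.07 (95% interval -0.44 to 0.57).

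**Figure D3:**
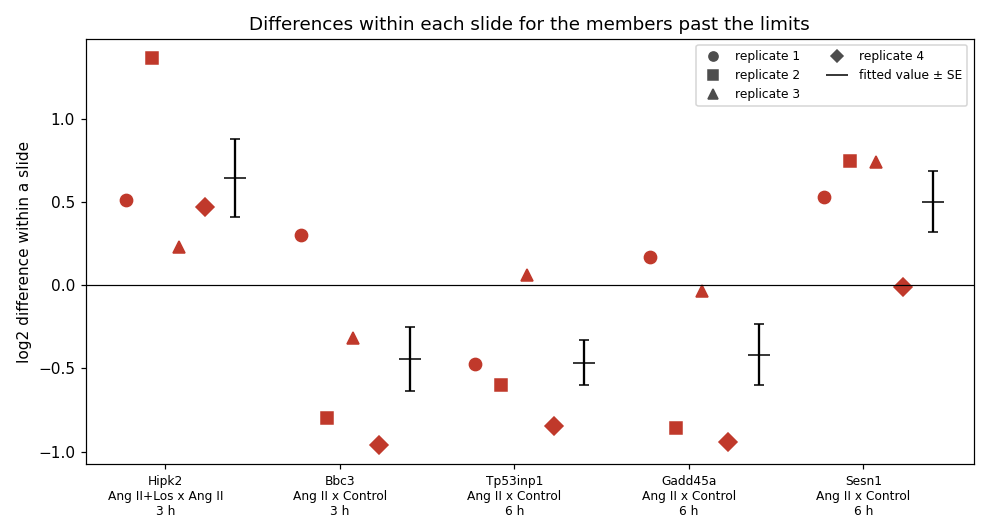
Log2 difference between treatments within each slide (y axis) for the 5 members past the limits in the named comparison (x axis), with symbol shapes giving the replicate number and black bars the fitted value ± SE. Hipk2 is above 0 in all 4 replicates, and Gadd45a is near -0.9 in replicates 2 and 4 and within 0.17 of 0 in the other 2.

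The genes whose within-slide deviations followed Hipk2 most closely over the 32 arrays were Sfmbt1 (Pearson r = 0.93), Mterf (0.92) and RGD1308706 (0.91), among 11839 genes well above background on all arrays. The points share slides, and 1 of them is the Ang II+Los array of replicate 2 at 3 h. Over the 31 arrays without it, r was 0.86 for Sfmbt1 and for Mterf and 0.82 for RGD1308706, and these still ranked highest of all. The mean of its slide still included that array, so its part was not fully removed. The genes were also picked on these same arrays, so the ranks are no independent check.

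Cdkn1a did not pass with Losartan at 3 h and its probes and replicates were uneven. Its mean over both probes read 12.02, 11.27, 12.02 and 12.17 in Ang II and 11.29, 10.71, 12.22 and 12.25 in Ang II+Los. It was lower by -0.73 and -0.57 in replicates 1 and 2 and higher by 0.20 and 0.07 in replicates 3 and 4, and these pairs were scanned apart. The fitted log2 fold change was -0.25 (SE 0.20, adjusted p = 0.54). Within the scan of replicates 1 and 2 it was -0.65 and past the limits, as were 2438 of all 13630 genes. Within that of replicates 3 and 4 it was 0.14. The part of the scan in this was not tested. Read alone, probe A_44_P914438 was lower in all 4 replicates and past the limits, with -0.35 (SE 0.14, adjusted p = 0.42), whereas A_64_P123895 had -0.16 (SE 0.29).

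The remaining 6 members lay between -0.11 (Bax) and 0.16 (Ccng1) in this comparison, with SEs from 0.11 to 0.24. Among the glial markers, Cnp had a log2 fold change of -1.14 here and was past the limits (adjusted p = 0.43), and the other 3 tested were not. The 5 tested markers of microglia and blood, neurons and endothelium did not pass. The part of Cnp or of the array of replicate 2 in the result for Hipk2 was not tested beyond the values above.

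With PD123319 at 3 h no member passed against Ang II, and 2.02% of all genes passed as higher and 0.624% as lower. The log2 fold changes ran from -0.11 (Gadd45a) to 0.28 (Cdkn1a), with 95% intervals that lay between -0.63 and 0.72. Cdkn1a was higher in all 4 replicates, by 0.09, 0.69, 0.02 and 0.34 (SE 0.20, adjusted p = 1.00). The median was 0.03 over the members and -0.02 over all genes.

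**Figure D4:**
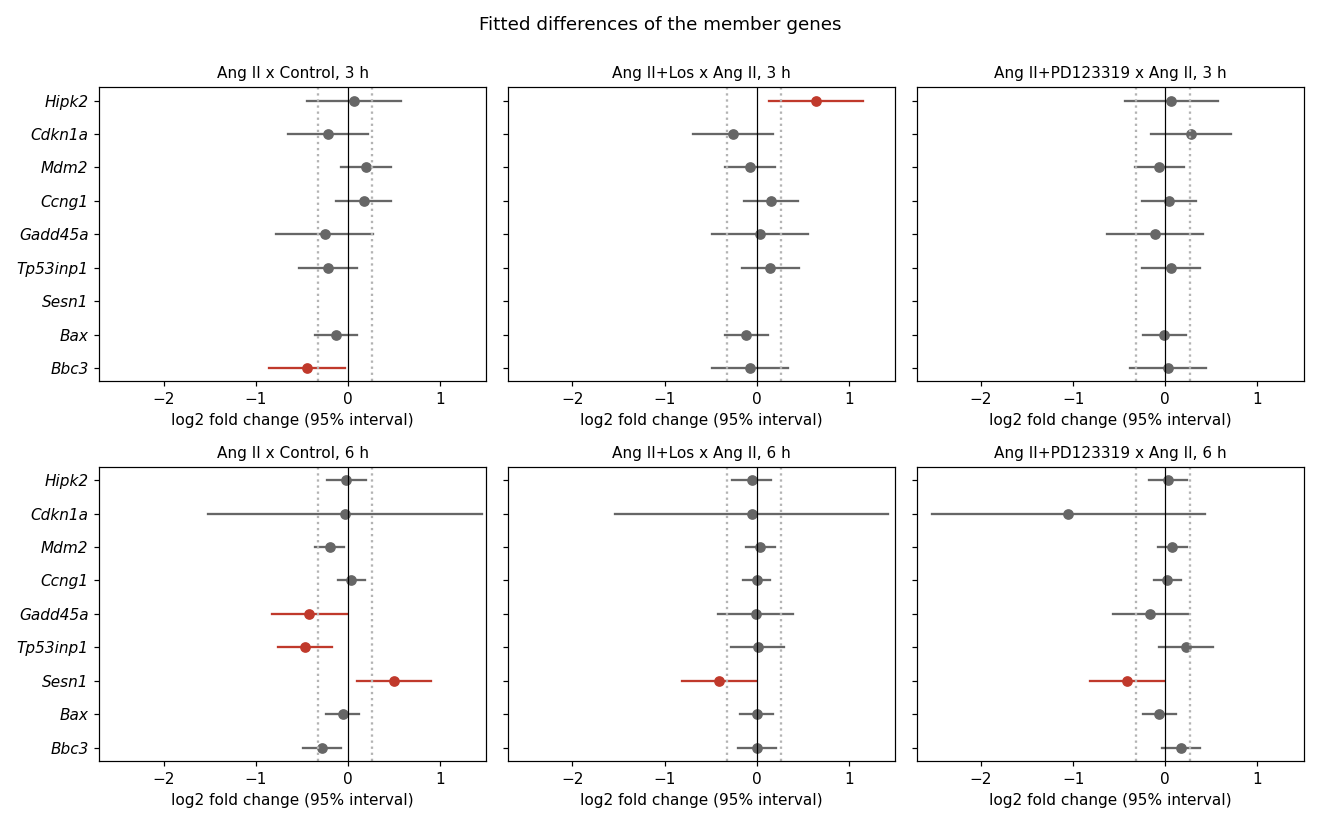
Fitted log2 fold change (x axis, point) with its 95% interval (line) for each member (y axis) in the 3 comparisons at 3 h (top) and 6 h (bottom). Red marks members past the limits, and dotted lines are folds of 0.8 and 1.2. The wide Cdkn1a intervals at 6 h come from a fit that includes 1 dim spot, and Sesn1 was not tested at 3 h.

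In Ang II x Control at 6 h, 3 of the 9 members passed: Tp53inp1 and Gadd45a were lower and Sesn1 was higher. Over all genes, 4.68% passed as lower and 6.78% as higher. The median log2 fold change was -0.06 over the members and -0.01 over all genes, with 7 of the 9 members below 0. Of the 4 tested glial markers, Cnp also passed in this comparison, as higher with 0.43 (adjusted p = 0.11), while the summed signal of the 4 ran from 4715 to 5261 in Ang II and from 4809 to 5110 in Control, and its part in the members' values was not tested. The 5 tested markers of other cells did not pass.

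Tp53inp1 read 6.90, 6.44, 5.88 and 7.05 in Control and 6.42, 5.84, 5.94 and 6.20 with Ang II. It was lower in replicates 1, 2 and 4, by -0.47, -0.60 and -0.85, and level in replicate 3 (0.06). The log2 fold change was -0.47 (SE 0.13, 95% interval -0.76 to -0.17, adjusted p = 0.12). Without replicate 4, the only slide of its scan, it was -0.34 and did not pass, and with another background correction (normexp) it was -0.23 and missed the fold limit. Without replicate 3 it was -0.64 with an adjusted p of 0.034, the 1 alternative in which a member passed after adjustment.

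Gadd45a fell into separate levels by slide. Control read 13.25 and 13.18 in replicates 2 and 4 but 10.94 and 10.96 in replicates 1 and 3. With Ang II, replicates 2 and 4 read 12.39 and 12.23 and replicates 1 and 3 read 11.11 and 10.92. The difference was thus -0.86 and -0.94 in replicates 2 and 4, and 0.17 and -0.04 in the others. The log2 fold change was -0.42 (SE 0.19, 95% interval -0.82 to -0.01, adjusted p = 0.22). It was -0.27 without replicate 2 and -0.24 without replicate 4, and passed in neither case. It also missed with quantile normalization (-0.40), with no filter (-0.42) and with the deposited values (-0.41).

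Bbc3 also had lower signal in all 4 replicates at 6 h, by -0.36, -0.12, -0.02 and -0.64. Its log2 fold change of -0.28 (SE 0.09, adjusted p = 0.14) missed the fold limit, and without replicate 2 (-0.34) or replicate 3 (-0.37) it passed. Mdm2 was lower in all 4 replicates, by -0.09, -0.37, -0.02 and -0.32, and its -0.20 (SE 0.07, adjusted p = 0.16) missed the fold limit too. Both Mdm2 probes were below 0 at this time, with -0.18 and -0.22.

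Ddit3, the stress-induced transcription factor CHOP and no member, is given here because its slides split at 6 h as those of Gadd45a did. It was chosen after its values were seen. At 6 h its differences between Ang II and Control were -2.23 and -1.92 in replicates 2 and 4, and -0.34 and -0.17 in replicates 1 and 3. At 3 h they were -4.80 and -4.95 in replicates 2 and 4, against -0.05 and 0.02 in replicates 1 and 3. Gadd45a did not split so at 3 h, with -0.06 in replicate 2 and -1.26 in replicate 4. Replicates 2 and 4 were also those with the most negative differences of Bbc3 at 3 h and of Tp53inp1 at 6 h, whereas those of Bbc3 at 6 h were in replicates 1 and 4. A replicate number marks a different slide at each time. Its part in the results for Gadd45a, Bbc3 and Tp53inp1 was not tested.

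Sesn1 was dim, with log2 signals of 3.09, 2.75, 3.48 and 4.11 in Control and 3.62, 3.49, 4.22 and 4.10 with Ang II, and 2 of the 4 Control arrays were well above background. All 4 Ang II arrays were. A gene was tested if all 4 arrays of a group were, and of these 2 groups only Ang II, the higher, met that rule. It was higher by 0.53, 0.75 and 0.74 in replicates 1 to 3 and level in replicate 4 (-0.01). The log2 fold change was 0.50 (SE 0.18, adjusted p = 0.16). It did not pass without replicate 1 (0.49), replicate 2 (0.42) or replicate 3 (0.42). With the normexp background, which compresses dim signals, it was 0.05.

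The remaining members were close to Control at 6 h. Hipk2 read 10.56, 10.52, 10.45 and 10.86 in Control and 10.52, 10.77, 10.50 and 10.54 with Ang II, a log2 fold change of -0.02 (95% interval -0.23 to 0.19). Bax had -0.06 (95% interval -0.24 to 0.12) and Ccng1 had 0.03 (95% interval -0.11 to 0.18).

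For Cdkn1a at 6 h, 1 spot decided the error of every comparison. On the Ang II+PD123319 array of replicate 4, probe A_44_P914438 had a scanner signal of 15.5, against 2649 to 11874 on the other 15 arrays, and the scanner software did not mark it as an outlier. The other probe had a scanner signal of 4995 there. As measured, Cdkn1a in Ang II+PD123319 read 12.20, 12.31, 11.93 and 7.79, and PD123319 against Ang II had a log2 fold change of -1.05 (SE 0.68, adjusted p = 0.86). Without that spot, a choice made after the values were seen, it was 0.09 (SE 0.07, 95% interval -0.05 to 0.23). Ang II x Control was then -0.03 (95% interval -0.18 to 0.11) and Ang II+Los x Ang II was -0.05 (95% interval -0.20 to 0.09).

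With either antagonist at 6 h, Sesn1 was the 1 member of 9 that passed, as lower. Of all genes, 0.365% passed as lower and 0.535% as higher with Losartan, and 1.22% and 2.57% with PD123319. Sesn1 read 3.29, 3.29, 3.33 and 3.89 in Ang II+Los, below Ang II in all 4 replicates, with a log2 fold change of -0.40 (SE 0.18, adjusted p = 1.00). In Ang II+PD123319 it read 2.86, 3.42, 3.91 and 3.56, also lower in all 4, with -0.42 (SE 0.18, adjusted p = 0.76). The 3 comparisons share the Ang II arrays, so these values and the 0.50 against Control are not independent. All 4 arrays of Ang II and of Ang II+PD123319 were well above background for Sesn1, and 3 of Ang II+Los. With Losartan only Ang II, the higher of the 2 groups, thus met the rule for testing. Over the alternatives Sesn1 ran from -0.47 to -0.04 with Losartan and from -0.54 to -0.08 with PD123319. With Losartan, Sesn1 was -0.43 without replicate 1 and -0.24 without replicate 3, and with PD123319 it was -0.31 without replicate 1 and -0.38 without replicate 4, and it passed in none of these.

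No other member passed with Losartan at 6 h, and apart from Cdkn1a and Sesn1 their log2 fold changes lay between -0.05 (Hipk2) and 0.04 (Mdm2). Gadd45a read 11.11, 12.40, 10.90 and 12.21, with a log2 fold change of -0.01 (SE 0.19), each of its replicates being within 0.03 of Ang II. Tp53inp1 read 6.35, 5.89, 5.97 and 6.24, with 0.01 (SE 0.13). With PD123319, Tp53inp1 was higher in all 4 replicates, by 0.05, 0.22, 0.31 and 0.31 (log2 fold change 0.22, SE 0.13, adjusted p = 0.85). Bbc3 was likewise higher in all 4, with 0.17 (SE 0.09, adjusted p = 0.84), and Gadd45a was lower in all 4, with -0.16 (SE 0.19, adjusted p = 0.93). None of these 3 differences passed the limits. Of the 4 tested glial markers, S100b passed here with 0.28 (adjusted p = 0.64), and their summed signal ran from 4526 to 5817 in Ang II+PD123319. Of the 3 tested microglia and blood markers, Aif1 passed here with 0.39 (adjusted p = 0.61), while the summed signal of the 3 ran from 207 to 321 in Ang II+PD123319 and from 215 to 282 in Ang II, and the part of S100b or Aif1 in these values was not tested.

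The response at 6 h was compared with that at 3 h for the 8 members tested at both times. In Ang II x Control, Mdm2 differed at an unadjusted p under 0.05, as did 7.19% of all 13617 genes: its response went from 0.20 at 3 h to -0.20 at 6 h, a difference of -0.39 (SE 0.14, adjusted p = 0.67). For Losartan against Ang II, Hipk2 did, as did 5.02% of all genes, from 0.64 to -0.05, a difference of -0.70 (SE 0.26, adjusted p = 0.70). For PD123319 against Ang II no member did, and 1.73% of all genes did. Time was confounded with scan and with the software's handling of dim spots, so these cannot be told apart from the time of treatment.

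Among 30 other p53 targets, 26 were found on the array, 18 were tested at 3 h and 21 at 6 h. In Ang II x Control at 3 h, 2 passed as higher and 2 as lower, with a median log2 fold change of 0.11. Of all genes, 5.04% passed as higher and 5.99% as lower, with a median of 0.00. Without the pairing by slide 0 of the 18 passed, and by the methods' paired test 2 did. The higher genes were Bid, a BH3-only activator of BAX, with 0.63 (SE 0.17, adjusted p = 0.32), and Triap1, an inhibitor of apoptosis, with 0.38 (SE 0.12). The lower genes were Igfbp3, which binds insulin-like growth factors, with -0.51 (SE 0.15), and the kinase Plk3, with -0.39 (SE 0.16). All 4 went the same way in all 4 replicates, although Bid was at 0.01 in replicate 1. Without replicate 1, 7 of the 18 passed, beside 1775 of all 13630 genes, and without replicate 2, 2 did, beside 754.

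At 6 h, 5 of the 21 passed as higher and 1 as lower in Ang II x Control, beside 6.78% and 4.68% of all genes, and 16 were above 0. Without the pairing by slide 3 of the 21 passed, and by the methods' paired test 3 did. The median was 0.14, against -0.01 over all genes. Ei24, an endoplasmic reticulum protein of autophagy, had 0.38 (SE 0.09, adjusted p = 0.083), Pml, the scaffold of nuclear bodies that also hold HIPK2, had 0.33 (SE 0.11), and Bid had 0.32 (SE 0.09). Zmat3, an RNA-binding zinc finger protein, had 0.29 (SE 0.08) and Polk, a translesion DNA polymerase, also had 0.29 (SE 0.09). Fdxr, the mitochondrial ferredoxin reductase, was lower with -0.55 (SE 0.15, adjusted p = 0.11), and by -1.01 and -0.79 in replicates 2 and 4 against -0.27 and -0.11 in the others. Each of these 6 went the same way in all 4 replicates.

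With each antagonist 1 of the 18 targets passed at 3 h and 0 of the 21 at 6 h, and without the pairing by slide 0 did. The shares of all genes at 3 h were 5.41% lower and 4.67% higher with Losartan, and 0.624% and 2.02% with PD123319. Ei24 was lower with Losartan at 3 h, with -0.95 (SE 0.38, adjusted p = 0.43), of which replicate 2 gave -2.90. With that replicate left out 0 of the 18 passed, beside 221 of all 13630 genes. Igfbp3 was higher with PD123319 at 3 h, with 0.36 (SE 0.15, adjusted p = 1.00), in a comparison that shares the Ang II arrays with its lower value against Control. The shares of all genes at 6 h were 0.365% lower and 0.535% higher with Losartan, and 1.22% and 2.57% with PD123319.

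Of 22 regulators of HIPK2 and p53, all on the array, 18 were tested at 3 h and 20 at 6 h. None passed in Ang II x Control at 3 h, where 5.04% of all genes passed as higher and 5.99% as lower. With Losartan at 3 h, Ep300, an acetyltransferase of p53, was higher with 0.31 (SE 0.12), the ubiquitin ligase Rchy1 was higher with 0.48 (SE 0.18), and the checkpoint kinase Chek2 was lower with -0.50 (SE 0.17), each with an adjusted p of 0.43. Of all genes, 4.67% passed as higher and 5.41% as lower. Without the pairing by slide 0 of the 18 passed, and by the methods' paired test 0 did. Rchy1 went that way in 3 of 4 replicates and is named outside the naming rule, after its values were seen. Without replicate 2, 0 of these 18 passed, beside 221 of all 13630 genes.

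At 6 h, 4 of 20 regulators passed as higher in Ang II x Control and 0 as lower, with a median of 0.11, beside 6.78% and 4.68% of all genes and their median of -0.01. Without the pairing by slide 0 of the 20 passed, and by the methods' paired test 1 did. Chek1, the other checkpoint kinase, had 0.46 (SE 0.14, adjusted p = 0.12), Chek2 had 0.32 (SE 0.08, adjusted p = 0.097) and Hipk3, a relative of HIPK2, had 0.26 (SE 0.09, adjusted p = 0.14). The damage-sensing kinase Atm had 0.69 (SE 0.26, adjusted p = 0.16), was lower in replicate 3, and is likewise named after its values were seen. Atm was dim, with mean log2 signals of 3.68 in Control, 4.37 in Ang II and 3.75 in Ang II+PD123319. It was not tested at 3 h. With PD123319, Atm was lower than in Ang II with -0.62 (SE 0.26) and Siah2, a ubiquitin ligase that targets HIPK2, was lower with -0.33 (SE 0.14), both in all 4 replicates and with an adjusted p of 0.74, and 1.22% of all genes passed as lower. Without the pairing neither passed, and by the methods' paired test 2 regulators did. The values of Atm against Control and with PD123319 share the Ang II arrays, so they are not independent. With Losartan 0 of the 20 passed at 6 h, where 0.535% of all genes passed as higher and 0.365% as lower. Without replicate 2 or without replicate 4, 1 of the 20 passed in Ang II x Control, beside 1370 and 1223 of all 16446 genes.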

How the data were processed

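Scanner text files of 32 Agilent 4x44K whole rat genome arrays, single-colour Cy3, were used. Per the file headers, Agilent Feature Extraction 9.5.3.1 produced the deposited intensities, background-subtracted, with rn4 coordinates. The authors also deposited a table of log2 values, used as an alternative. Outlier-flagged spots (298 to 888 of 42877 per array) were dropped. Signals not significantly above 0 were replaced by their error at 3 h, and at 6 h kept the software's substitutes. Processed signals were taken to log2, spots of a probe averaged, and the 16 arrays of a time normalized by cyclic loess (span 0.7, 3 iterations). Probes had to be well above background on all 4 arrays of a group, with at most 2 gaps, and probes of a gene were averaged. limma 3.58.1 (R 4.3.3) fitted each time with the replicate as a block. The design text names paired tests, the number marks a shared slide, and deviations of same-numbered arrays correlated (lowest r 0.14, medians of a slide 0.31 to 0.82). Limits were an unadjusted p under 0.05, as in the study's methods, and a fold over 1.2 or under 0.8, which those methods do not state, with Benjamini-Hochberg adjustment over all genes tested.

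Members and gene lists were chosen with earlier results of these data known. Named genes were all members, and of the other lists genes past the limits that moved the same way in all 4 replicates, up to 6 per list and comparison, plus the 3 genes most like Hipk2. Of the 30 other targets, 2 were matched by an older name, as were 2 of the 22 regulators. The number of arrays limits precision. The fit was tested on simulated data. Alternatives changed the block, test, scaling, background, filter, probes, scan and replicates. A member's fold change was called reversed only where it or the alternative was past the limits.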

Additional observations from a re-analysis of the deposited data

Results flagged for a closer look

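In 6 of 68 groups of 4 arrays, 1 array lay far from the other 3 by Dixon's ratio, the gap to the nearest array over the range of the group, which chance gives in about 5% of groups. For Cdkn1a in Ang II+PD123319 at 6 h the ratio was 0.916, from the array at 7.79 that holds the dim spot. For Sesn1 in Ang II+Los at 6 h it was 0.928, from replicate 4 at 3.89. For Mdm2 in Control at 6 h it was 0.888, from replicate 3 at 8.68, a slide whose other arrays read 8.66, 8.66 and 8.72. For Hipk2 it was 0.866 in Ang II+PD123319 at 3 h, from replicate 1 at 10.41, and 0.859 in Ang II at 6 h, from replicate 2 at 10.77. On that 6 h slide Hipk2 read 10.52 in Control, 10.75 in Ang II+Los and 10.78 in Ang II+PD123319. For Bbc3 in Ang II at 3 h it was 0.859, from replicate 3 at 11.53, a slide whose other arrays read 11.85, 11.51 and 11.50. The ratio was taken on values that still held the shifts between slides, which the block removes in the fits.

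The response to a treatment differed between 6 h and 3 h at an unadjusted p under 0.05 for Mdm2 in Ang II x Control (-0.395, adjusted p = 0.67) and for Hipk2 in Ang II+Los x Ang II (-0.696, adjusted p = 0.70), by limma's interaction term.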

How the results depend on the processing

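No member past the limits reversed its direction under any alternative. Hipk2 with Losartan at 3 h passed in 13 of 14 alternatives, with values from 0.35 to 0.94, and missed with the methods' paired test per gene. Over all alternatives and members, 665 fold changes kept their side of the limits, 41 that had passed no longer did and 5 newly did. Why counts changed was not tested.

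Without the replicate block, which drops the pairing of arrays on a slide, Hipk2 was the only member that passed: against Control 0 members passed at either time and 0 had a differing response over time, and with either antagonist 0 passed at 6 h. The other p53 targets then gave 0 in each 3 h comparison and 3 against Control at 6 h. The regulators gave 0 with Losartan at 3 h, and at 6 h 0 against Control and 0 with PD123319. The methods' paired test, with the fold limit kept, gave 0 members in all 6 comparisons. Against Control it gave 2 other targets at 3 h, 3 at 6 h and 1 regulator at 6 h, and with Losartan at 3 h 0 of either list.

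Sesn1 with Losartan at 6 h was lost with quantile normalization, normexp, the stricter filter and no filter, leaving 0 members. With PD123319 at 6 h it was lost with 75th percentile scaling, normexp, both filters and within scan 3, leaving 0. Normexp left 1 member in Ang II x Control at 6 h, Gadd45a, and 0 for its response over time. With no filter 2 members passed in Ang II x Control at 3 h (Sesn1 with 1.49), and 2 with the deposited values (Mdm2 with 0.41). Of all genes, 2000 of 26583 and 1011 of 9257 passed in these. At 3 h Sesn1 was well above background on 0 of 4 Control and 1 of 4 Ang II arrays, so its 1.49 rests on dim signals. Each probe on its own, and scan 1 alone, gave 2 members with Losartan at 3 h (Cdkn1a the added one). In scan 1 2438 of all 13630 genes passed in that comparison. Against Control, scan 1 gave 0 members at 3 h and scan 3 gave 1 at 6 h, beside 659 of all 13630 and 1223 of all 16446 genes.

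Of the other targets, normexp gave 2 with Losartan and 0 with PD123319 at 3 h and 2 against Control at 6 h. For them PD123319 at 6 h gave 1 with 75th percentile scaling and 1 with no filter, and Losartan at 3 h gave 0 with the deposited values. Of all genes, 916 of 16446, 1277 of 26582 and 962 of 9257 passed in these. Scan 1 gave 1 against Control, 2 with Losartan and 0 with PD123319, and scan 2 gave 2 with Losartan and 0 with PD123319. Of all 13630 genes, 659, 2438 and 34 passed in scan 1, and 581 and 580 in scan 2. Of the regulators, normexp gave 1 in Ang II x Control at each time. With PD123319 at 6 h they gave 0 with 75th percentile scaling, normexp and scan 3, and 1 with the stricter filter and the deposited values. Of all genes, 916, 157 and 334 of 16446, 448 of 14955 and 395 of 11228 passed in these. The deposited values gave 2 and scan 3 gave 1 against Control at 6 h, and scan 2 gave 0 with Losartan. The counts over all genes there were 1268 of 11228, 1223 of 16446 and 581 of 13630.

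Leaving out each replicate in turn, in the order Ang II x Control, Losartan and PD123319, members ranged from 0 to 1, stayed at 1 and stayed at 0 at 3 h, and from 1 to 3, 0 to 1 and 0 to 1 at 6 h. The other targets ranged from 2 to 7, 0 to 3 and 0 to 2 at 3 h, and from 4 to 7, at 0, and 0 to 1 at 6 h. The regulators ranged from 0 to 1, 0 to 4 and 0 to 1 at 3 h, and from 1 to 5, at 0, and 0 to 1 at 6 h. All genes past the limits ranged from 754 to 1775, 221 to 1831 and 40 to 722 of 13630 at 3 h. At 6 h these ranges were 1223 to 2512, 114 to 423 and 334 to 1039 of 16446. The members whose response differed over time ranged from 0 to 2 in Ang II x Control.

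Over all genes, in the same order, 1503, 1374 and 360 passed at 3 h and 1885, 148 and 624 at 6 h. Without the block these were 356, 341 and 62, then 528, 35 and 113. With the methods' paired test they were 658, 136 and 149, then 731, 59 and 287. Normexp gave 882, 998 and 175, then 756, 18 and 157, and no filter gave 2000, 1639 and 837, then 2187, 482 and 1277. No scaling moved the median of all genes by 0.1. At an adjusted p of 0.05, 0 genes passed in the fits reported, and against Control at 6 h 69 did with the stricter filter, 47 with the deposited values, 1 with no filter and 328 without replicate 3. Elsewhere 4 did with PD123319 at 6 h with no filter, and 2 within scan 2 against Control.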
